A study of Mus musculus with 20 samples.

Results

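The fibroblast growth factor (FGF) genes described here are 10 members of the family, chosen by name as those measured in gut mesenchyme: the secreted ligands Fgf2, Fgf5, Fgf7, Fgf9, Fgf10 and Fgf18, and the intracellular FGF homologous factors Fgf11, Fgf12, Fgf13 and Fgf14. They are 10 of 43280 gene rows in the count tables and 10 of 22 mouse FGF genes there. The members were chosen with earlier results of these data known. All 10 passed the low-count filter in the embryonic libraries, and 6 passed it in the adult libraries. The study asked what Polycomb repressive complex 2 (PRC2), the enzyme complex that methylates histone H3 at lysine 27, does in the mesenchyme of the developing stomach and intestine, and deleted its core subunit gene Eed.

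RNA was sequenced from 12 sorted cell samples, 2 in each of 6 groups, and accessible chromatin was mapped by ATAC-seq in 4 pooled lists of peaks. Embryonic control stomach and intestine came from E13.5 embryos of genotype Bapx1-cre;Rosa26mTmG, and the Eed KO organs from Eedfl/fl;Bapx1-cre;Rosa26mTmG embryos (strain C57BL/6 in the labels, whereas the methods describe mixed backgrounds), so controls also carried the Cre and the GFP reporter. Bapx1 (Nkx3-2) drives Cre in the early gut mesenchyme, and GFP-positive cells were sorted. The adult libraries, labelled WT and EED-KO, came from mice of about 10 weeks. The methods describe their cells as GFP-positive stromal cells sorted from the small intestine, and the cell markers found in them are given below. Both groups carried Pdgfrb-CreERT2, a tamoxifen-induced Cre under a gene of pericytes and other stromal cells, and Rosa26mTmG, the mutants also carried Eed fl/fl, and tamoxifen was given for 5 days. How many animals went into a library, and which organs came from the same embryos, is not given in the sources used here, and p-values measure the spread between libraries, which the methods call biological replicates.

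FGF ligands leave the cell, bind heparan sulfate on neighbouring surfaces and activate receptor tyrosine kinases. In the gut, mesenchymal Fgf7 and Fgf10 act on the epithelium through the IIIb form of Fgfr2, whereas Fgf9 signals to the mesenchyme and supports its growth. The homologous factors are not secreted and do not act through those receptors in the usual way. They bind the intracellular end of voltage-gated sodium channels and are best known from neurons and heart.

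The promoters of 5 members are shown because their transcripts differed most between organs (Fgf7, Fgf12, Fgf14, Fgf10) or rose in the Eed KO intestine (Fgf14, Fgf11). Each is the RefSeq stretch of 250 bases before to 50 bases after a transcript start (GRCm38.p6, gene strand, 5′ to 3′). Capitals mark GC boxes (GGGCGG or its reverse complement CCGCCC), the core site of Sp1-family factors, which 35.7% of 32851 RefSeq promoters of the same length held on either strand.
Fgf7 (chr2:126034408-126034707, plus strand): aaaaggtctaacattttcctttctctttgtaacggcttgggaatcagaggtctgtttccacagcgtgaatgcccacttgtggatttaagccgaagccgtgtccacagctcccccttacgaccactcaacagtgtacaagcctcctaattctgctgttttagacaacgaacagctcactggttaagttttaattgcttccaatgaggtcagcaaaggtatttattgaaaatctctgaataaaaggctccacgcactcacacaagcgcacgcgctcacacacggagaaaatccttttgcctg
Fgf10 (chr13:118714449-118714748, plus strand): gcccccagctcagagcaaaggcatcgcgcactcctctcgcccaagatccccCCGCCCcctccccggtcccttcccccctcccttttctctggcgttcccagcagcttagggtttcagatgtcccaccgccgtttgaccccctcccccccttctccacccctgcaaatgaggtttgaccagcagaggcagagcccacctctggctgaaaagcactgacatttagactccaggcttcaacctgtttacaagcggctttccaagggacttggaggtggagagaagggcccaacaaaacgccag
Fgf12 (chr16:28753194-28753493, minus strand): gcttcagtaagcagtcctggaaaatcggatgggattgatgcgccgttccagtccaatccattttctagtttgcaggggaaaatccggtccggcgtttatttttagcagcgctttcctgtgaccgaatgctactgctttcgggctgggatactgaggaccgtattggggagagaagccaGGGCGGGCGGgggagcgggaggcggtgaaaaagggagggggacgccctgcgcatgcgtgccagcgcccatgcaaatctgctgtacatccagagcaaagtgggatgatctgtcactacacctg
Fgf14 (chr14:124192497-124192796, minus strand): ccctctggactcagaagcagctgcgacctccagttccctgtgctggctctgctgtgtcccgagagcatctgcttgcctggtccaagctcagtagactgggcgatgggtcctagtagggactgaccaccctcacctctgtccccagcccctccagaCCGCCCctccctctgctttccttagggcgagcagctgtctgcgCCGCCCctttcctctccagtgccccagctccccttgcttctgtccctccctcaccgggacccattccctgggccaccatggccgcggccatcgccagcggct
Fgf11 (chr11:69802231-69802530, minus strand): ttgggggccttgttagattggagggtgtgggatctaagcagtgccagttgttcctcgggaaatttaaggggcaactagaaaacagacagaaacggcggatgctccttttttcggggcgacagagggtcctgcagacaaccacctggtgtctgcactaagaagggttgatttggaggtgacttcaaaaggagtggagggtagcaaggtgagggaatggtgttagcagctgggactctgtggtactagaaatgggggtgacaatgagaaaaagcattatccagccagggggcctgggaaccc
Fgf12 and Fgf14 each held 2 GC boxes in these windows, Fgf10 held 1, and Fgf7 and Fgf11 held none. TATA boxes (TATAAA or TTTATA), the homeodomain core TAATTA and the E-box CACGTG were also searched, and these 5 windows held none of them. They occurred in 13.6%, 5.29% and 7.15% of all promoters. The Fgf7 and Fgf10 windows held 11 and 10 CpG dinucleotides, against a median of 7 over all promoters, and the Fgf12 window shown held 18. Fgf11 had 5, and Fgf18, not shown, had 47, a value above that of 98.6% of promoters.

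Library depth was 30236159 to 39606157 gene counts in the embryo and 11404712 to 15903642 in the adult. Values are CPM, read counts scaled to a common library size by TMM, and a gene was called where the edgeR quasi-likelihood test gave a Benjamini-Hochberg adjusted p under 0.05 over all genes with a fold change above 2 (log2 above 1). Eed was at 40.1 and 41.5 CPM in control stomach against 11.5 and 7.40 in Eed KO stomach, and at 38.1 and 40.1 in control intestine against 10.7 and 8.59 in Eed KO intestine. In the adult it was at 29.7 and 33.4 CPM in control and 25.7 and 25.0 in the libraries labelled Eed KO, a log2 difference of -0.32 that did not pass the test (adjusted p = 0.317, edgeR). These CPM are of whole libraries, whose cell markers follow. The study's supplement also reports a deletion efficiency of Eed in isolated pericryptal cells. Embryonic libraries were rich in the 7 mesenchyme markers, with summed levels of 12999 to 24468 CPM, and had 0.464 to 3.25 CPM for 5 leukocyte markers. All 4 embryonic control libraries held both Xist and the Y-linked gene Ddx3y, whereas in both Eed KO organs replicate 1 had Xist at or below 0.0792 CPM and replicate 2 had Ddx3y at or below 0.0548 CPM. In the adult, the leukocyte sum was 2254 and 3037 CPM in control but 82096 and 94815 CPM in the libraries labelled Eed KO, and the mesenchyme sum was 11332 and 11856 against 4956 and 3440 CPM.

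Levels between genes were compared per length, as TPM, counts divided by transcript length and scaled to a common total. Fgf10 was the most abundant member in all 4 embryonic groups, at 75.3 ± 23.7 TPM in control stomach and 24.8 ± 5.41 TPM in control intestine (mean ± SD, n = 2), and both its libraries stood above those of the next member except in Eed KO intestine, where it overlapped Fgf11. In control stomach Fgf13 followed at 24.2 ± 1.89 TPM, and Fgf12, Fgf9 and Fgf5 came next at 14.0 ± 2.41, 13.6 ± 0.226 and 13.3 ± 1.86 TPM without separating. Fgf18 and Fgf11 (11.2 ± 0.506 and 10.1 ± 1.82 TPM) and Fgf2 and Fgf7 (5.44 ± 2.02 and 4.46 ± 2.04 TPM) likewise overlapped, and Fgf14 was lowest at 1.10 ± 0.399 TPM. In control intestine the order from Fgf9 at 10.5 ± 3.77 TPM down to Fgf2 at 3.95 ± 0.518 TPM ran without a gap between neighbouring members. Fgf12 stood below these at 2.17 ± 0.197 TPM, and Fgf14 and Fgf7 were lowest at 0.209 ± 0.0157 and 0.149 ± 0.102 TPM.

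The comparison of control organs asked how the mesenchyme of the stomach and of the intestine differ at E13.5. Of the 10 members, 6 were called and all 6 were lower in intestine: Fgf7, Fgf10 and Fgf5 among the ligands and Fgf12, Fgf13 and Fgf14 among the homologous factors. Over all 16218 genes tested, 3.39% were called higher in stomach and 1.68% higher in intestine. The median log2 fold change was -1.38 over the members against 0.00 over all genes. In 9 of 10 members both intestine libraries lay below both stomach libraries, as did 26.7% of all genes, and only the libraries of Fgf2 overlapped. Because the members were chosen with earlier results of these data known, the shares are a description. Scaled to spike-in totals, Fgf7 alone was called. Markers of other cells also differed between control organs: 2 of 9 epithelial markers (Cldn4, Epcam) and 1 of 4 mesothelial markers (Wt1) were called lower in intestine and 3 of 5 endothelial markers higher. Their part in the members' values was not tested.

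Fgf7, keratinocyte growth factor, had 3.22 and 6.32 CPM in control stomach against 0.0843 and 0.236 CPM in control intestine. The intestinal values rested on 3 and 7 counts, and the stomach libraries, although they differed from each other, were far above them. The log2 fold change was -4.92 ± 0.51 (SE; adjusted p = 0.00164, edgeR), and the ratio of the summed counts was 31.8 (95% exact interval 17.1 to 66.9, counting error only). Fgf10, which directs the budding and growth of foregut and gut epithelium, had 139 and 88.8 CPM in stomach and 32.8 and 43.3 CPM in intestine. The groups did not overlap, and stomach replicate 1 was the highest of the 4. Its log2 fold change was -1.58 ± 0.24 (adjusted p = 0.00858, edgeR). Fgf5, a ligand best known for ending hair growth, had 9.83 and 12.03 CPM in stomach against 3.23 and 5.69 CPM in intestine. It was the weakest of the 6 calls, at -1.30 ± 0.28 (adjusted p = 0.0336, edgeR).

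**Figure D1:**
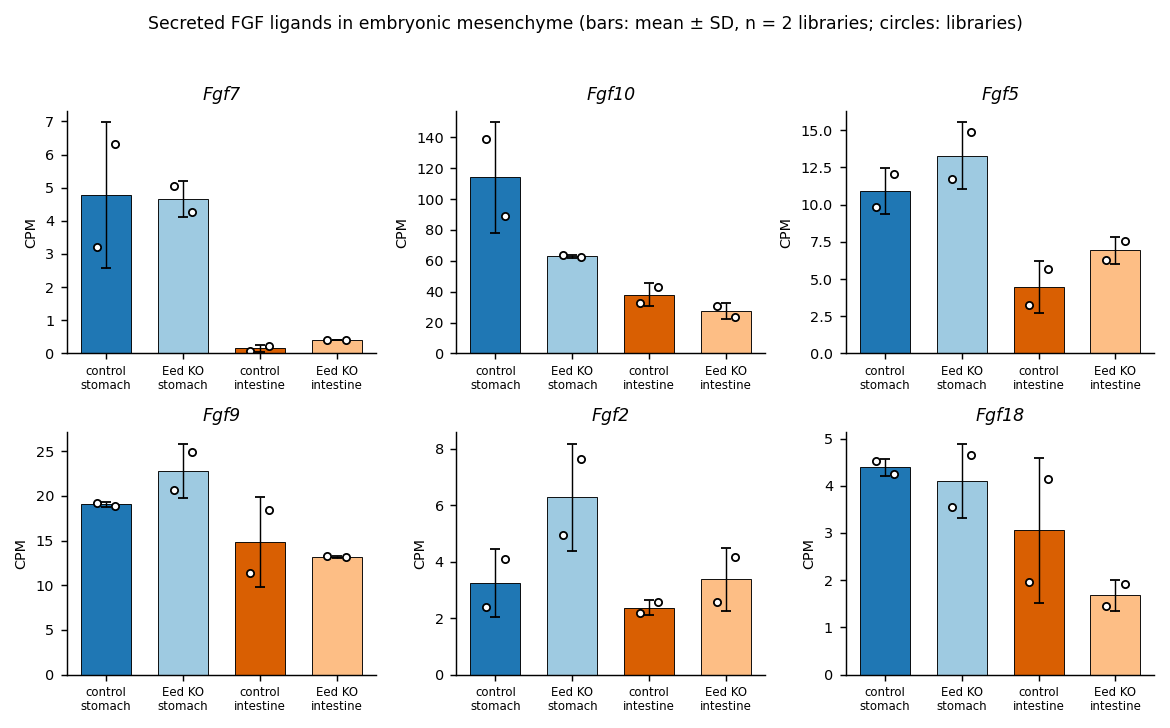
CPM of the 6 secreted ligands (y axes, linear, starting at 0) in the 4 embryonic groups, with bars for the mean, error bars for the SD and circles for the 2 libraries. Fgf7 is near 0 in both intestine groups and Fgf10 falls from stomach to intestine in controls and Eed KO alike, while the libraries of Fgf2 and Fgf9 lie closer together.

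The other secreted ligands did not pass the test between control organs. Fgf9 had 19.2 and 18.9 CPM in stomach and 11.3 and 18.4 in intestine (log2 fold change -0.36, 95% interval -0.87 to 0.15). Fgf18, a ligand of cartilage and lung mesenchyme, had 4.52 and 4.26 CPM in stomach and 1.97 and 4.14 in intestine (-0.53, interval -1.34 to 0.28). In both genes intestine replicate 2 came close to the stomach level and replicate 1 did not. Fgf2, basic FGF, had 2.38 and 4.08 CPM in stomach and 2.19 and 2.56 in intestine (-0.45, interval -1.30 to 0.40). Exons of its gene model overlapped exons of Bbs12 on the same strand by 32 bp, and it also overlapped Nudt6 and Cetn4 in antisense.

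Among the homologous factors, Fgf12 showed the clearest separation. It had 12.3 and 15.8 CPM in control stomach against 2.11 and 2.32 in control intestine, groups far apart and each tight, for a log2 fold change of -2.67 ± 0.19 (adjusted p = 0.000425, edgeR). Fgf13, which lies on the X chromosome, had 30.2 and 33.9 CPM in stomach and 11.0 and 12.3 in intestine, and both stomach libraries were higher by a wide margin (-1.46 ± 0.19, adjusted p = 0.00411, edgeR). Fgf14 had 1.13 and 1.91 CPM in stomach against 0.281 and 0.303 in intestine, where it rested on 10 and 9 counts (-2.38 ± 0.36, adjusted p = 0.00823, edgeR). The ratio of its summed counts was 5.32 (95% exact interval 3.25 to 9.15). Fgf11 differed less, with 11.4 and 8.82 CPM in stomach and 7.02 and 8.28 in intestine (log2 fold change -0.40, interval -0.85 to 0.05), and it was not called.

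**Figure D2:**
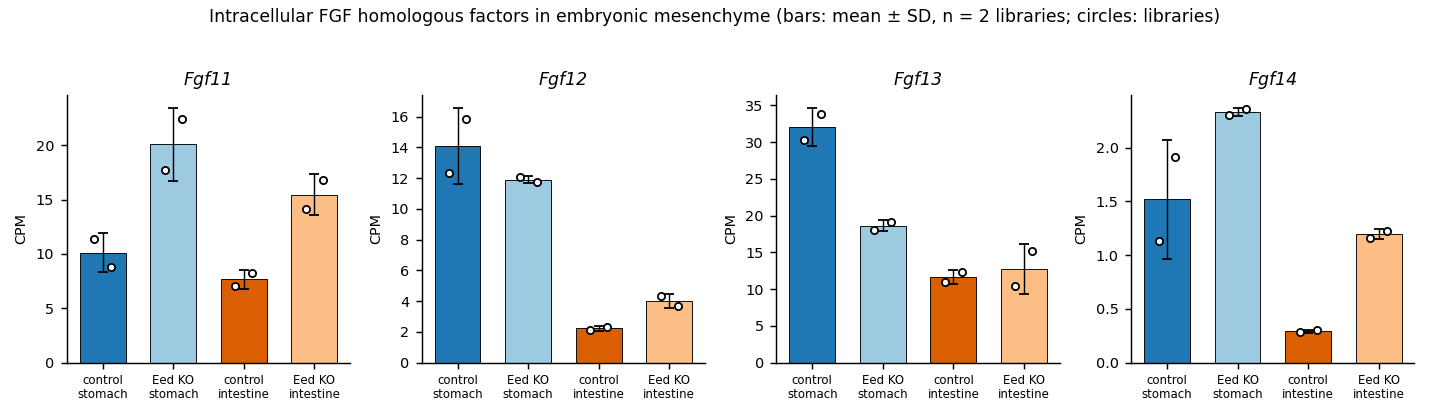
CPM of the 4 FGF homologous factors (y axes, linear, starting at 0) in the 4 embryonic groups, with bars for the mean, error bars for the SD and circles for the 2 libraries. Fgf12, Fgf13 and Fgf14 are higher in control stomach than in control intestine, and Fgf11 is higher in Eed KO than in control in both organs.

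Fgf7 and Fgf12 kept their calls in every fit that left out 1 library, with log2 fold changes of -5.77 to -4.31 and -2.84 to -2.47. Without control intestine replicate 1, Fgf10, Fgf13, Fgf14 and Fgf5 were not called, with log2 fold changes of -1.38, -1.37, -2.31 and -0.93. Without control intestine replicate 2 Fgf14 was not called (-2.43), and Fgf5 was also not called without control stomach replicate 1 (-1.44) or replicate 2 (-1.14). Of 12 markers of enteric neurons and neural crest, cells that also use sodium channels, 11 were tested. Their summed level was higher in control intestine (219 and 208 against 103 and 106 CPM), but 8 of the 11 had a lower value in intestine, with a median log2 fold change of -0.45. Stmn2, Uchl1 and Gap43 were called lower and Ednrb higher, and the part of these cells in the members' values was not tested.

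The same organ comparison was made between Eed KO intestine and Eed KO stomach. All 10 members were lower in intestine with no overlap of the libraries, a state of 23.9% of all genes, and 3 were called, Fgf7, Fgf12 and Fgf10. Over all genes, 2.94% were called higher in stomach and 1.46% higher in intestine. Fgf7 had 5.04 and 4.28 CPM in Eed KO stomach and 0.396 and 0.399 in Eed KO intestine, so the knockout stomach lay within the control stomach range and the knockout intestine stayed near 0 (log2 fold change -3.54 ± 0.44, adjusted p = 0.00511, edgeR). The ratio of its summed counts was 11.7 (95% exact interval 8.02 to 17.8). Fgf12 had 12.04 and 11.8 CPM against 4.33 and 3.68, again with tight and separate groups (-1.57 ± 0.18, adjusted p = 0.00332, edgeR). Fgf10 had 63.7 and 62.2 CPM against 30.9 and 23.6 (-1.21 ± 0.24, adjusted p = 0.0279, edgeR), and was not called without Eed KO stomach replicate 1 (-1.19), Eed KO stomach replicate 2 (-1.22) or Eed KO intestine replicate 2 (-1.02). Fgf18, at 3.54 and 4.66 against 1.45 and 1.91 CPM, had a log2 fold change of -1.29 ± 0.36 that missed the threshold (adjusted p = 0.0872, edgeR) and passed it in DESeq2 (adjusted p = 0.0167) and in edgeR with a replicate block by number or by embryo pool (adjusted p = 0.0278 and 0.0184). The median over the members was -0.95 against 0.00 over all genes. Cell markers also differed between Eed KO organs. Of 6 smooth muscle markers, 4 were called higher in intestine, with a median log2 fold change of 1.24. Wt1 (mesothelium), Stmn2 (enteric neurons) and Myod1 (skeletal muscle) were called lower there. The part of these cells in the members' values was not tested.

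**Figure D3:**
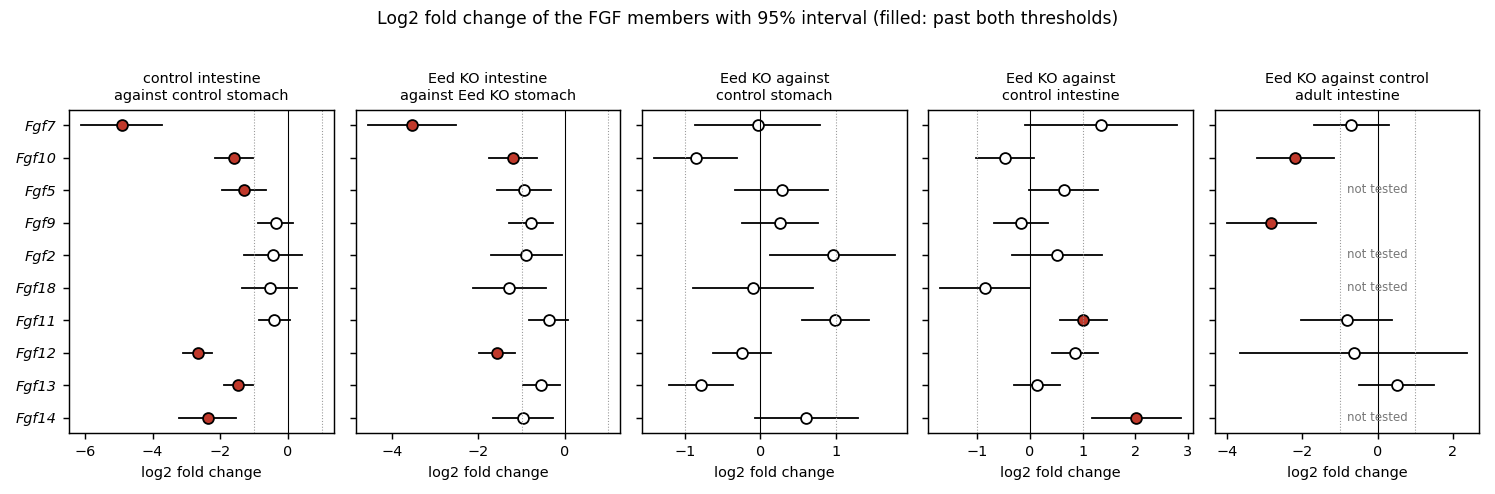
Log2 fold change (x axes) of each member with its 95% interval in 5 comparisons, filled where the member was called, with dotted lines at a log2 fold change of -1 and 1. All members lie left of 0 in both organ comparisons, no member is filled for Eed KO stomach, Fgf11 and Fgf14 are filled for Eed KO intestine, and Fgf9 and Fgf10 are filled to the left of 0 in the adult.

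Eed KO stomach was compared with control stomach next. No member was called by edgeR or by DESeq2, while 4.84% of all genes were called higher and 0.808% lower, and 4 of 10 members had an unadjusted p under 0.05. Fgf11 came closest. It had 11.4 and 8.82 CPM in control stomach and 17.7 and 22.4 in Eed KO stomach, with both knockout libraries higher, and its log2 fold change of 0.99 ± 0.19 stood just under the required size (adjusted p = 0.0224, edgeR). It was called without Eed KO stomach replicate 1 (1.15). Fgf13 went the other way, from 30.2 and 33.9 to 18.1 and 19.2 CPM (-0.78 ± 0.18, adjusted p = 0.0428, edgeR), also too small a change to be called. The Eed KO libraries of replicate 1 and of replicate 2, which differed in Xist and Ddx3y, had 18.1 and 19.2 CPM of this X-linked gene in stomach and 10.4 and 15.2 in intestine, where its log2 fold change of 0.13 became -0.17 without replicate 2. Fgf10 was at 63.7 and 62.2 CPM in Eed KO stomach, below both controls, with a log2 fold change of -0.86 ± 0.24 (adjusted p = 0.0734, edgeR). In DESeq2 its adjusted p was 0.00694, but the change was too small to be called. Fgf2 was at 4.94 and 7.62 CPM, above both controls (0.95 ± 0.35, adjusted p = 0.160, edgeR).

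In the intestine, 2 of 10 members were called after loss of Eed, both higher and both homologous factors. Over all genes, 2.38% were called higher and 0.228% lower. Fgf14 had 0.281 and 0.303 CPM in control and 1.16 and 1.23 in Eed KO, from 10 and 9 to 44 and 43 counts. Both knockout libraries were well above both controls and came to the lower edge of the control stomach, for a log2 fold change of 2.02 ± 0.36 (adjusted p = 0.0318, edgeR) and a ratio of summed counts of 4.10 (95% exact interval 2.47 to 7.13). Fgf11 had 7.02 and 8.28 CPM in control and 14.1 and 16.8 in Eed KO, again without overlap (1.01 ± 0.19, adjusted p = 0.0391, edgeR). Fgf12 had 2.11 and 2.32 CPM in control and 4.33 and 3.68 in Eed KO, both higher, but missed both thresholds (0.86 ± 0.19, adjusted p = 0.0590, edgeR). In DESeq2 its adjusted p was 0.0204, with a change still too small to be called (0.85). Fgf7 was at 0.396 and 0.399 CPM in Eed KO, on 15 and 14 counts, and was not called (1.34, interval -0.10 to 2.79). Fgf10 had 30.9 and 23.6 CPM in Eed KO intestine, below both controls (-0.48, interval -1.04 to 0.08).

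Neither call in the intestine was stable to the choice of libraries. With each library left out in turn the log2 fold changes stayed at 0.88 to 1.13 for Fgf11 and 1.96 to 2.07 for Fgf14, but Fgf11 kept its call only without an Eed KO stomach library and Fgf14 only without a control stomach library. The fit of the 4 intestine libraries alone called neither (adjusted p = 0.0657 and 0.0597, edgeR). Scaled to the total of the spike-in RNA, the median of all genes rose by 2.39 (log2) in Eed KO stomach and by 1.85 in Eed KO intestine, and 9 and 8 members were then called higher. On that scale Fgf10 in stomach, at 1.56, was below the median gene. The 5 endothelial markers summed to 11.4 to 15.1 CPM in the 4 control libraries and 21.9 to 44.5 CPM in the 4 Eed KO libraries, and their part in the members' values was not tested.

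Whether the response to loss of Eed differed between organs was tested as an interaction, with control intestine minus control stomach less the same difference in Eed KO. No member was called by edgeR at an adjusted p under 0.2, a wider threshold kept for this contrast, with a log2 fold change above 1, against 0.462% of all genes in either direction, and 3 members had an unadjusted p under 0.05. They were Fgf12 (-1.10 ± 0.25, adjusted p = 0.301, edgeR), Fgf13 (-0.92 ± 0.26, adjusted p = 0.505) and Fgf14 (-1.41 ± 0.47, adjusted p = 0.613). In all 3 the organ difference was smaller in Eed KO. Fgf12 was called by DESeq2 (adjusted p = 0.0986) and, in edgeR, with a replicate block by number (adjusted p = 0.172), with a block by embryo pool (0.0449) and without the low-count filter (0.102), and Fgf13 was called in the edgeR fit without Eed KO intestine replicate 1 (-1.17). For Fgf11 the interaction was -0.02 (interval -0.65 to 0.61), and its log2 fold changes of 0.99 and 1.01 in stomach and intestine were alike in size.

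Accessible chromatin at the promoters was read from broad peaks called on pooled replicates, so it has no replicate error and was not tested. All 10 members had a peak within 1000 bp of the gene's 5′ end in each of the 4 lists. That state is common, since 88.4% of 16191 tested genes had one in control stomach, 89.1% in Eed KO stomach, 88.0% in control intestine and 89.1% in Eed KO intestine. Fgf7 had a peak over its start in every list, including control intestine with its 3 and 7 counts. Its fold enrichment over background was 6.90 in control stomach and 6.62 in Eed KO stomach against 5.31 and 5.38 in the intestines, the same order as its transcripts. Fgf14 did not follow its transcripts, with 4.14 and 3.89 in the stomachs and 5.18 and 4.05 in the intestines. Fgf5 was likewise highest in control intestine (6.09 against 4.55 in control stomach). At the 5′ ends of Fgf12 and Fgf13 control intestine was also above control stomach (4.44 against 3.96, and 4.81 against 4.51). Fgf10 had the order of its transcripts between control organs, at 2.80 in intestine and 3.72 in stomach. Between Eed KO organs it had the reverse of that order, at 4.30 in intestine and 3.67 in stomach.

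The window shown above for Fgf12 (chr16:28753194-28753493) lay within a peak of 9.38-fold enrichment in control stomach, 8.74-fold in Eed KO stomach, 8.15-fold in control intestine and 8.38-fold in Eed KO intestine. This start lay 308016 bp from the 5′ end of the counted gene model and outside it, and the nearest RefSeq start, at 848 bp, held no GC box. All 4 RefSeq starts of Fgf12 had a peak in every list. Fgf13 had peaks at 2 of its 4 RefSeq starts, and these 2 windows held 40 and 37 CpG dinucleotides, whereas the windows of the starts without a peak held 3 and 6. For Fgf2, Fgf10 and Fgf14 the 5′ end of the counted gene model lay 36134, 44908 and 484581 bp from the RefSeq start, and the RefSeq start of each had its own peak in all 4 lists. At the Fgf14 RefSeq start, whose sequence is printed above, the enrichment was 4.19 and 5.00 in control and Eed KO stomach and 4.30 and 4.91 in control and Eed KO intestine. At the Fgf10 RefSeq start it ranged from 3.30 to 3.53. No peak covered the start of Fgf11, and the nearest edge lay 361 to 442 bp upstream of the RefSeq start in the 4 lists.

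**Figure D4:**
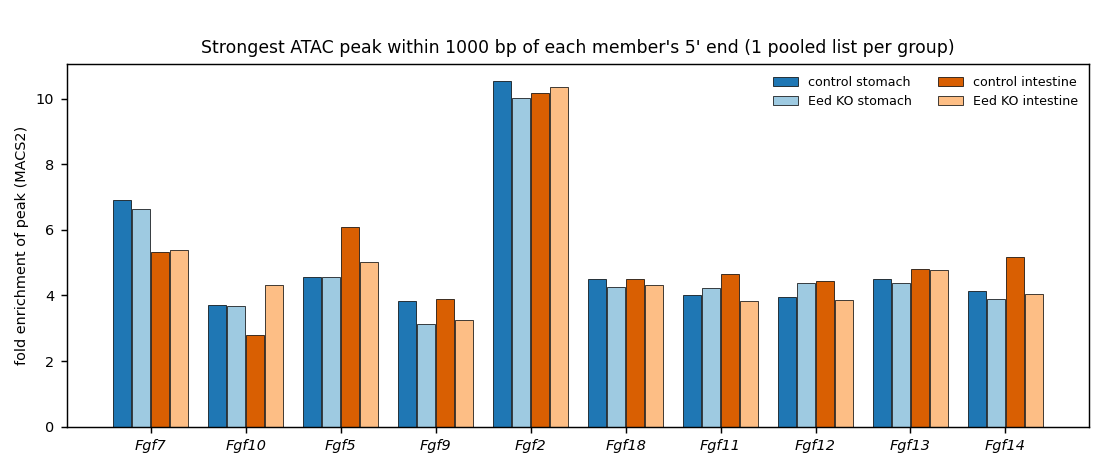
Fold enrichment (y axis, starting at 0) of the strongest ATAC-seq peak within 1000 bp of the 5′ end of each member, 1 bar for each pooled list. Fgf2 is highest at 10.0 to 10.5 and Fgf7 is higher in both stomach lists than in both intestine lists, while Fgf5 is highest in control intestine and Fgf10 in Eed KO intestine, so the members share no common order of the 4 lists.

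In the adult intestine, Fgf7 was the most abundant member at 21.9 ± 4.79 TPM in control, ahead of Fgf10 at 13.8 ± 5.20 TPM. Embryonic and adult libraries were made and counted differently, and their levels were not tested against each other. Of the 6 members tested between the libraries labelled Eed KO, in which Eed itself was not called lower, and control, 2 were called, Fgf9 and Fgf10, both lower, against 7.23% of 15039 genes called lower and 12.3% called higher. Fgf9 had 9.44 and 6.24 CPM in control and 1.20 and 1.01 in the libraries labelled Eed KO, where it rested on 12 and 13 counts. Both of these were far below the controls, for a log2 fold change of -2.82 ± 0.50 (adjusted p = 0.00772, edgeR). Fgf10 had 17.9 and 31.7 CPM in control and 7.33 and 3.71 in those labelled Eed KO, again without overlap (-2.18 ± 0.44, adjusted p = 0.0125, edgeR). Both calls held with each library left out. With 1 spike-in factor removed by RUVg, Fgf10 was not called (-1.39).

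These differences stood beside the change in cell markers given above: all 5 leukocyte markers were called higher in the libraries labelled Eed KO and 4 of 6 tested mesenchyme markers lower. All 6 smooth muscle and all 5 endothelial markers had a higher value there, with 3 and 1 of them called higher. In bulk samples fewer cells of a type and less RNA per cell cannot be told apart. The summed mesenchyme list fell by 1.47 on the log2 scale, and the sums of the enteric neural and mesothelial markers differed by -1.34 and -1.15. The endothelial sum differed by 1.03. Of 9 enteric neural markers tested, however, 8 had a higher value (median 1.26), with Elavl4 called higher and Ednrb lower. Per 1000 CPM of the mesenchyme list, Fgf9 was at 0.833 and 0.526 in control and 0.243 and 0.292 in the libraries labelled Eed KO. The groups were still apart, with a ratio of 2.54. Fgf10 was at 1.58 and 2.68 in control and 1.48 and 1.08 in those labelled Eed KO, with a ratio of 1.66 and control replicate 1 close to the higher of them. What part the change in cells had in either value was not tested.

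**Figure D5:**
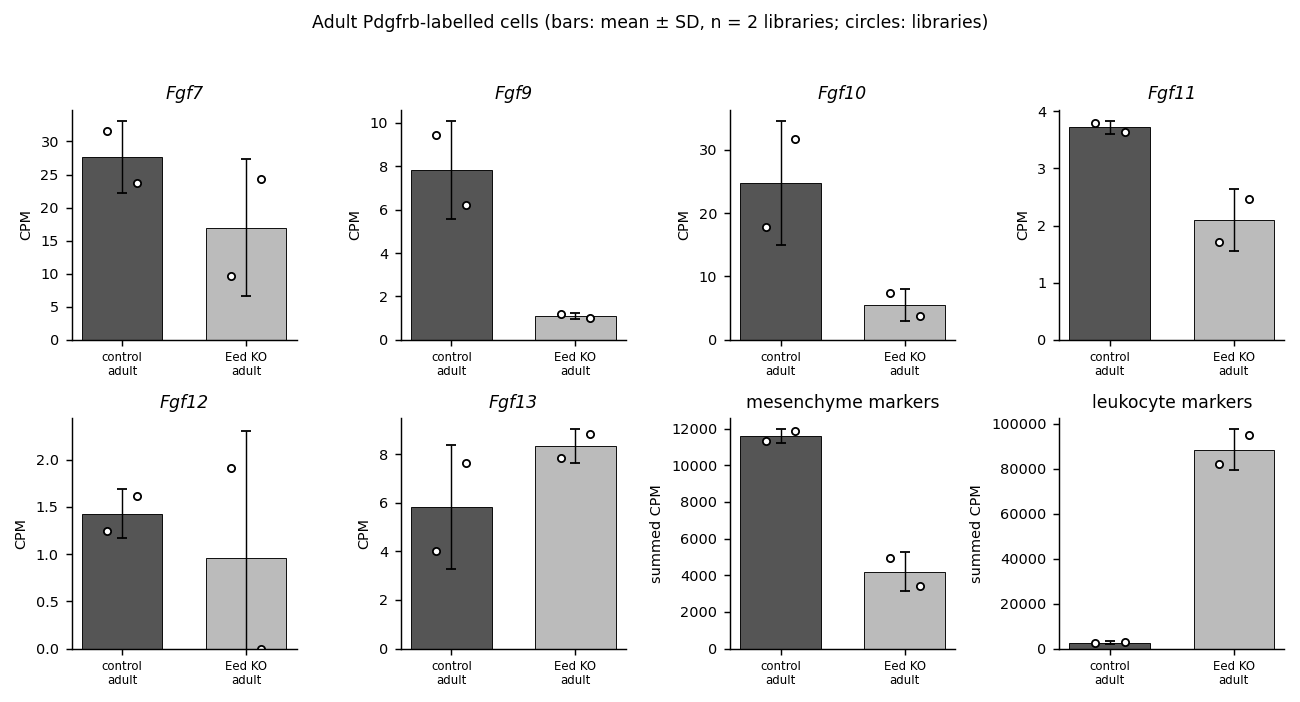
CPM of the 6 tested members and summed CPM of the mesenchyme and leukocyte markers (y axes, linear, starting at 0) in adult control libraries and those labelled Eed KO, with bars for the mean, error bars for the SD and circles for the 2 libraries. Fgf9 and Fgf10 are lower in the libraries labelled Eed KO together with the mesenchyme sum, the leukocyte sum is higher, and Fgf7 and Fgf12 are spread widely there.

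The remaining adult members were not called. Fgf7 had 31.5 and 23.8 CPM in control and 9.63 and 24.3 in the libraries labelled Eed KO, which disagreed, and 1 of them reached the control level (log2 fold change -0.70, interval -1.70 to 0.30). Without the library labelled Eed KO replicate 2 it was called (-1.53). Fgf11 had 3.81 and 3.64 CPM in control and 1.71 and 2.47 in those labelled Eed KO, lower in both (-0.82, interval -2.04 to 0.39). Fgf13 had 4.02 and 7.64 against 7.83 and 8.81 CPM (0.51, interval -0.48 to 1.51), and Fgf12 had 1.24 and 1.61 against 1.91 and 0, so that no direction could be read. Fgf2, Fgf5, Fgf14 and Fgf18 had 0 to 12 counts a library and were not tested.

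Of the 12 other FGF ligand genes, 4 passed the embryonic low-count filter. Fgf8, a ligand of early patterning centres, was the only gene of these called, higher in Eed KO stomach (adjusted p = 0.0199, edgeR), as were 4.84% of all genes. It had 1 and 1 counts in control stomach and 13 and 20 in Eed KO stomach, a ratio of 16.5 (95% exact interval 4.22 to 142). Control intestine gave 1 and 2 counts of Fgf8 against 10 and 18 for Eed KO intestine, a ratio of 8.36 (interval 2.58 to 42.9), without a call. With 1 or 2 counts in each control library, Fgf8 passed the low-count filter only through its Eed KO libraries, where it was high. The call in stomach is therefore a description. The stomach call was lost without control replicate 1 (log2 fold change 3.96), control replicate 2 (3.80) or Eed KO replicate 2 (3.52).

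Of 7 receptors and co-receptors, 6 were tested in the embryo and none was called by edgeR between organs, with 2 at an unadjusted p under 0.05 in controls and 2 in Eed KO. Fgfr3, a receptor with a known role in limiting bone growth, rose in Eed KO intestine from 3.32 and 3.06 to 7.18 and 6.73 CPM (1.12 ± 0.16, adjusted p = 0.0138, edgeR). It lost its call without any 1 of the 4 intestine libraries (1.06 to 1.18 over all libraries left out). In the adult 2 of 5 tested were called lower, against 7.23% of all genes. Fgfr2, whose IIIb form is the receptor of Fgf7 and Fgf10, fell from 93.8 and 68.6 to 21.4 and 12.1 CPM (-2.28 ± 0.32, adjusted p = 0.00320, edgeR), a call that held with each library left out. Counts per gene did not separate the forms of Fgfr2. Fgfr4 went from 9.59 and 4.41 to 1.71 and 1.16 CPM (-2.29 ± 0.58, adjusted p = 0.0294, edgeR) and was not called without control replicate 1 (-1.63) or the library labelled Eed KO replicate 2 (-2.04). The median over the receptors was -1.07 in the adult against 0.00 over all genes and -1.46 over the mesenchyme markers, and the part of the change in cells was not tested.

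Of 16 heparan sulfate and extracellular FGF-binding genes, 1 was called lower in control intestine than in control stomach, as were 3.39% of all genes. Between Eed KO organs 1 was called lower in intestine, as were 2.94% of all genes. None was called by edgeR for loss of Eed in either embryonic organ, where 6 in stomach and 5 in intestine had an unadjusted p under 0.05. Fgfbp1, a carrier that releases FGFs from the matrix, was at 1.74 and 2.35 CPM in control stomach and 0.450 and 0.538 in control intestine (-2.05 ± 0.30, adjusted p = 0.00710, edgeR). It was not called without control stomach replicate 2 (-1.81) or control intestine replicate 1 (-1.91). Sulf1, which trims sulfate from heparan sulfate, was at 644 and 950 CPM in Eed KO stomach against 180 and 303 in Eed KO intestine (-1.72 ± 0.29, adjusted p = 0.0154, edgeR), a call lost without Eed KO stomach replicate 2 (-1.41). In the adult, where 7.23% of all genes were called lower and 12.3% higher and the mesenchyme markers were lower as given above, 3 of 15 fell, among them Sulf1 (-1.65 ± 0.22, adjusted p = 0.00285, edgeR) and the glypican Gpc1 (-1.49 ± 0.36, adjusted p = 0.0246), and the syndecan Sdc4 rose (2.28 ± 0.27, adjusted p = 0.00158). Gpc1 was not called without control replicate 1 (-1.50) or the library labelled Eed KO replicate 2 (-1.13).

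Of 13 genes of FGF response and feedback, 1 was called higher and 1 lower in control intestine than in control stomach (1.68% and 3.39% of all genes). In Eed KO stomach 1 was called higher (4.84% of all genes), and in Eed KO intestine none by edgeR (3 at an unadjusted p under 0.05). Between Eed KO organs 1 was called lower in intestine (2.94% of all genes). Il17rd (Sef), a feedback inhibitor, was at 137 and 106 CPM in control stomach and 61.0 and 54.3 in control intestine (-1.07 ± 0.16, adjusted p = 0.00823, edgeR), and was also lower in Eed KO intestine than in Eed KO stomach (-1.03 ± 0.16, adjusted p = 0.0120). The first of these calls was lost without control stomach replicate 1 (-0.88) or either control intestine library (-1.15 and -0.99), the other without Eed KO stomach replicate 2 (-0.85) or Eed KO intestine replicate 1 (-0.98). In the adult, 2 of 12 fell and 2 rose, beside the same 7.23% and 12.3% of all genes and the same change in markers. Spry1, another feedback inhibitor, went from 39.1 and 34.0 to 6.82 and 7.65 CPM (-2.33 ± 0.25, adjusted p = 0.000937, edgeR), and Il17rd from 6.81 and 5.18 to 1.81 and 1.86 (-1.70 ± 0.47, adjusted p = 0.0392), a call lost with each of the 4 libraries left out (-1.88 to -1.50). Etv5, a transcription factor induced by FGF signalling, and Flrt3, a membrane protein that binds FGF receptors, rose by 1.51 ± 0.25 and 1.63 ± 0.35 (adjusted p = 0.00590 and 0.0171, edgeR). Scaled to spike-in totals neither was called (adjusted p = 0.160 and 0.186), and Flrt3 was also not called with 1 RUVg factor (0.144).

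Of 10 intracellular partners of the homologous factors, sodium channel genes and the scaffold gene Mapk8ip2, 7 were tested in the embryo. Scn3a was called higher in control intestine than in control stomach, at 3.79 and 3.20 CPM against 0.957 and 0.612 (2.16 ± 0.28, adjusted p = 0.00424, edgeR), opposite in direction to Fgf12, Fgf13 and Fgf14. It was also higher in Eed KO intestine than in Eed KO stomach (1.66 ± 0.26, adjusted p = 0.0124), except without Eed KO stomach replicate 1 (1.53) or replicate 2 (1.81). In Eed KO stomach 4 of 7 partners were called higher, against 4.84% of all genes, and the median over the list was 1.08 against 0.00 over all genes. Mapk8ip2, which binds Fgf12 and related factors, went from 7.94 and 7.19 to 17.4 and 21.3 CPM (1.35 ± 0.16, adjusted p = 0.00381, edgeR). Scn8a was the single partner called in Eed KO intestine, where 2.38% of all genes were called higher. It went from 2.67 and 3.50 to 6.41 and 6.28 CPM (1.04 ± 0.19, adjusted p = 0.0349, edgeR), and it lost that call with each library of the fit left out (0.85 to 1.24). In Eed KO stomach (1.08 ± 0.20, adjusted p = 0.0183) it lost its call with each stomach library left out, at 0.98 to 1.18. Of the 11 enteric neural markers tested, 9 had a higher value in Eed KO stomach (median 0.31, Stmn2 called higher and Gap43 lower) and 8 in Eed KO intestine (median 0.87, Stmn2 called higher), although their sum was 140 and 196 CPM in Eed KO intestine against 219 and 208 in control. In Eed KO stomach 4 of 5 endothelial markers and both tested skeletal muscle markers (Myod1, Actn2) were also called higher. The part of these cells in the values was not tested.

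Over the 8 embryonic libraries, the members with the largest range of log2(CPM + 0.5), an offset that narrows the range of low genes such as Fgf14, were Fgf7, Fgf12 and Fgf10. The genes whose log2 CPM followed Fgf7 most closely were Prr15l, Ppp1r3c and A930017K11Rik (Pearson r = 0.995, 0.994 and 0.992). Those for Fgf12 were Ptprz1, Pitx1 and Mecom (r = 0.995, 0.995 and 0.994), and those for Fgf10 were Accs, Nprl2 and Homer3 (r = 0.997, 0.984 and 0.983). The points share libraries and organ groups, and the values describe these 8 libraries.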

How the data were processed

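Counts per gene were deposited by the authors as raw whole numbers for 12 RNA libraries. Per the labels and methods they trimmed reads with Trimmomatic 0.32, aligned them with STAR 2.5.1b to GRCm38/mm10 with spike-in sequences and counted them with featureCounts on GENCODE vM4, from stranded embryonic and unstranded adult libraries. Antisense overlaps, such as Fgf10 with Gm16263 and Fgf14 with Gm28932, cannot be told apart in the adult. The authors pooled ATAC-seq replicates before MACS2 2.1.2 called broad peaks. The deposited lists give a display score (not used), the fold enrichment as a ratio over background, and −log10 p-values and −log10 q-values; they include chromosome X, and 13.5% to 20.0% of their peaks had a −log10 q-value under 2.

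Genes passing filterByExpr were fitted with edgeR 4.0.16 (TMM, quasi-likelihood, R 4.3.3), the 8 embryonic libraries in 1 model of 4 group means and the 4 adult libraries in another, with p-values adjusted over all genes. The 99 spike-in rows stayed out. TPM used the exon lengths of the adult tables. Biological coefficients of variation were 15.8% and 29.1%. Intervals of count ratios cover counting error only. The fit was tested on simulated data. All 10 members are named, with Eed, up to 4 called genes of each FGF list by largest change, and the 3 genes most alike to each of 3 members. One gene that this rule names is not reported here. Members and lists were chosen with earlier results of these data known. Alternatives were DESeq2 1.42.0, no filter, other scalings, blocks by replicate number, single libraries left out and other peak windows. Promoter sequences are from RefSeq (GRCm38.p6), where all 10 members matched; the start table for peaks and the scaling to mesenchyme markers were chosen after seeing the data.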

Additional observations from a re-analysis of the deposited data

Results flagged for a closer look

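Fgf11 differed in opposite directions between the libraries labelled Eed KO and control at the 2 ages of the intestine. Both Eed KO libraries were above both controls in the embryo, with a log2 fold change of 1.01, and both were below in the adult, with -0.82. The adult value did not pass the test, Eed itself was not called lower there, and leukocyte markers were higher and mesenchyme markers lower. Per 1000 CPM of the summed mesenchyme markers adult Fgf11 was at 0.336 and 0.307 CPM in control and 0.344 and 0.719 in the libraries labelled Eed KO, so the direction turned on that scale. Embryonic and adult libraries were prepared and sorted differently, and the difference between ages was not tested. Groups of 2 libraries were too small to look for single libraries that stand apart.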

How the results depend on the processing

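Of the members' and pathway genes' values under the alternatives, 981 kept their direction and side of the threshold, 100 lost their call, 23 gained one, 2 moved and 32 changed sign; the cause was not tested. Scaling to spike-in totals shifted the median gene by 2.39 in Eed KO stomach, 1.85 in Eed KO intestine, 0.30 between control organs, -0.24 between Eed KO organs, 0.53 for the interaction and -0.42 in the adult. The members called then numbered 1 between control organs (6 otherwise), 9 in Eed KO stomach (0), 8 in Eed KO intestine (2) and 1 between Eed KO organs (3), and the pathway genes called 0 (4), 45 (6), 38 (2) and 1 (3). Signs turned for Fgf7 (2.27), Fgf10 (1.56), Fgf18 (2.37), Fgf12 (2.13), Fgf13 (1.62) and Eed (0.14) in stomach, for Fgf9 (1.71), Fgf10 (1.31) and Fgf18 (1.11) in intestine, for Fgf5 (0.15), Fgf10 (0.25) and Fgf11 (0.54) in the interaction, and for adult Fgf13 (-0.011). With 1 RUVg factor, Fgf2 (-0.14), Fgf5 (-0.10) and Fgf7 (0.091) turned in stomach, Fgf2 (-0.38) and Fgf13 (-0.26) in intestine and Fgf12 (0.23) in the adult. RUVg left 0 members called in Eed KO intestine and 1 in the adult, and 1 pathway gene in stomach, 1 in intestine and 6 (10) in the adult. Fitting only the 4 libraries compared left 0 members and 0 pathway genes in Eed KO intestine and 1 pathway gene between Eed KO organs.

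Without the low-count filter, 4 pathway genes were called in Eed KO intestine and 5 between Eed KO organs, and 1 member in the interaction; DESeq2 called 1 member and 1 pathway gene in the interaction. The labels do not say that replicate numbers pair libraries, and the main fits did not pair them. In Eed KO, same-numbered libraries of the organs were alike in the Xist and Ddx3y state given above. Deviations of same-numbered libraries correlated at 0.340 between control organs and 0.714 between Eed KO organs, at 0.104 to 0.240 between genotypes and at -0.0734 in the adult. With a replicate block by number or by embryo pool, 1 member was called in the interaction, Fgf7 in stomach was 0.030 by number, and 6 pathway genes were called between Eed KO organs by pool.

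With 1 library left out, the members called ranged from 2 to 6 between control organs, 0 to 1 in Eed KO stomach, 0 to 1 in Eed KO intestine, 2 to 4 between Eed KO organs, 0 to 1 in the interaction and 2 to 3 in the adult, and the pathway genes from 1 to 5, 1 to 6, 0 to 1, 0 to 4, 0 to 1 and 7 to 12. Signs turned within -0.78 to 0.0016 for Fgf2 between control organs, -0.44 to 0.53 for Fgf7 and -0.31 to 0.085 for Fgf18 in stomach, -0.49 to 0.22 for Fgf9 and -0.17 to 0.38 for Fgf13 in intestine, -0.82 to 0.0044 for Fgf5 and -0.20 to 0.17 for Fgf11 in the interaction, and -7.30 to 0.41 for Fgf12 in the adult. Relative to the summed mesenchyme markers, adult Fgf9 and Fgf10 were at -1.34 and -0.73. A window of 500 bp left 9 members with a promoter peak. In depth, 3 counts were 0.0765 to 0.101 CPM in the embryo and 0.210 to 0.301 in the adult.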
